A study of Mus musculus with 3 samples.

Results

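The genes described here are the 10 that encode the TGF-beta ligands (Tgfb1, Tgfb2 and Tgfb3), their type I, type II and accessory receptors (Tgfbr1, Tgfbr2 and Tgfbr3) and the latent TGF-beta binding proteins (Ltbp1, Ltbp2, Ltbp3 and Ltbp4), out of 36167 features in the expression matrices. They were taken by their names, with no measured value in the rule, although the set was proposed with earlier results of these data known. Their UMIs, the counts of distinct RNA molecules, were read per pool and class of nuclei, in nuclei with at least 1000 UMIs and at most 5% mitochondrial UMIs.

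The tissue was the aortic valve structure of mice at postnatal day 1, flash-frozen and pooled before nuclei were prepared. There were 3 pools of 22 to 24 aortic roots, all of 1 group, and all carried the strain label B6.Cg-Scx<tm1.1(EGFP)Skom (stock number RBRC11098), which names an EGFP allele of the tendon transcription factor gene Scx. Zygosity, sex and the presence of wild-type littermates are not stated, each pool mixes animals, and no untreated or mutant group exists. Nuclear RNA was measured with the gene expression part of the 10x Genomics Multiome assay, and all comparisons below set classes of nuclei of the same pools against each other.

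TGF-beta is secreted as an inactive complex, in which the mature ligand is held by its own propeptide and most often tethered to a latent TGF-beta binding protein that anchors it to fibrillin-rich matrix. Integrins, thrombospondin and proteases release it, and the free ligand joins TGFBR2, the ligand-binding kinase, with TGFBR1, the kinase that phosphorylates SMAD2 and SMAD3; TGFBR3, or betaglycan, presents TGF-beta2 to them. In the developing outflow tract this pathway takes part in the transition of endocardium to valve mesenchyme and in matrix remodelling, and changes in its genes underlie inherited diseases of the aortic root such as Loeys-Dietz syndrome.

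Of 21140 deposited nuclei 14073 met the rule, 891 of these were marked as doublets, and 13182 were analysed, with median totals of 4283, 4756 and 3340 UMIs in pools 1, 2 and 3. The median mitochondrial share was 0.745%, 1.11% and 0.464%, so pool 3 was the lowest in both. Pairs of pools shared 16 to 33 barcodes among analysed nuclei. The nuclei formed 28 clusters, and 10 classes named from marker genes had at least 20 nuclei in every pool, together 12764 nuclei in 30 sums of 73104 to 8399855 UMIs. They were smooth muscle-like (3211 nuclei), cardiomyocyte-like (3009), endothelial-like (2731), valve interstitial-like (1544), fibroblast-like (1321), mesothelial-like (362), macrophage-like (261), pericyte-like (135), lymphatic endothelial-like (117) and erythroid-like (73). Clusters were named from their markers, so marker sums describe the naming and do not test it. The 10 valve interstitial markers summed to 7557 to 8644 CPM in their own class and to 2318 to 2559 CPM in the next class, the fibroblast-like. Members of the pathway were kept out of the clustering and of the markers. Levels are in CPM, a gene's UMIs in each 1000000 UMIs of the class and pool, and a mean is given with its SD over the 3 pools. CPM is not scaled to gene length and capture differs by gene, so levels are compared between classes for 1 gene and never between genes.

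The promoter windows of 4 members are shown because these genes peaked in different classes: Tgfb1 in macrophage-like and endothelial-like nuclei, Tgfb2 in smooth muscle-like and valve interstitial-like nuclei, Ltbp2 in valve interstitial-like nuclei at the clustering used, and Ltbp1, with 2 annotated starts, in endothelial-like and smooth muscle-like nuclei. Each is the 250 bases before the start in RefSeq's GRCm38.p6 annotation, 5′ to 3′ on the gene's strand, and the expression files were made on another build. Capitals mark the SMAD-binding motif CAGAC and the GC box GGGCGG, each searched on both strands, with no base shared by both motifs in these windows.
Tgfb1 (chr7:25686752-25687001, + strand): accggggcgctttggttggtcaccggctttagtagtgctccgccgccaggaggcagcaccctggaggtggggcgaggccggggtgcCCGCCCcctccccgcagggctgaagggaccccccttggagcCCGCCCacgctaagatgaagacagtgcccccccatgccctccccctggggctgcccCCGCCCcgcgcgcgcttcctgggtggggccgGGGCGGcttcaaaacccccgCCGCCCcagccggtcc
Tgfb2 (chr1:186705990-186706239, - strand): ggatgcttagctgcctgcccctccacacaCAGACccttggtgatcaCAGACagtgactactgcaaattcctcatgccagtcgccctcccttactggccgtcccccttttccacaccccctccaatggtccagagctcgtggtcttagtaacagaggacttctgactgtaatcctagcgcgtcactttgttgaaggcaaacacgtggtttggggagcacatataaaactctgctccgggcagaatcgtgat
Ltbp1, start 1 (chr17:75005279-75005528, + strand): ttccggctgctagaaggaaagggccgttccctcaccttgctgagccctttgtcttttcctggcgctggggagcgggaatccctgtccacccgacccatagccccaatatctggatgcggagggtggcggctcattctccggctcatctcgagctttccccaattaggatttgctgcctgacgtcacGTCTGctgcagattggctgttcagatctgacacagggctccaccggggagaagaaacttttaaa
Ltbp1, start 2 (chr17:75178531-75178780, + strand): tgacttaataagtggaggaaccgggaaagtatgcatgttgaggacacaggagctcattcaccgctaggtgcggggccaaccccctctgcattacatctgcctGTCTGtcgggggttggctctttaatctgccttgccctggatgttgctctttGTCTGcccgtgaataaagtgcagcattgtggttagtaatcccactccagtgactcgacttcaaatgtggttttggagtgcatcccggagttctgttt
Ltbp2 (chr12:84876492-84876741, - strand): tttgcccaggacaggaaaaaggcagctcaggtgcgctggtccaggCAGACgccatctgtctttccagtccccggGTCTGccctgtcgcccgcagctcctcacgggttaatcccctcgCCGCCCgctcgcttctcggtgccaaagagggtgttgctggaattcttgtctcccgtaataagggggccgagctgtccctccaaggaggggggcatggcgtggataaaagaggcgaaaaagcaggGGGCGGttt
Tgfb1 held 5 GC boxes and no SMAD motif. Tgfb2 held 2 SMAD motifs and no GC box. Ltbp1 held 1 and 2 SMAD motifs at its starts, and Ltbp2 held 2 SMAD motifs and 2 GC boxes. Among the 32851 windows of this length in the table, 42.2% held a SMAD motif and 32.7% a GC box. Windows were found for 8 of the 10 members, 12 in all, of which 7 held a SMAD motif and 6 a GC box. By gene, 6 of the 8 had a SMAD motif in at least 1 window and 4 a GC box, beside 45.8% and 35.4% of all genes in the table. A match is a description of the letters and not a bound site. The UMI counts do not tell which of the Ltbp1 starts was in use.

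The ligands differed in where they were found. Tgfb1, the ligand best known from immune cells and endothelium, stood at 110, 162 and 71.9 CPM in pools 1, 2 and 3 in macrophage-like nuclei. It stood at 54.2, 112 and 63.1 CPM in lymphatic endothelial-like and at 68.0, 73.9 and 64.7 CPM in endothelial-like nuclei. The pool values of these 3 classes overlapped, and each of their values was above every value of the other 7 classes at the clustering used. At a coarser clustering (Leiden resolution 0.5) the macrophage-like class held 440 nuclei, 203 of them in pool 3, in place of 261 and 63. Its median total was 6220 UMIs in place of 3364, and what the added nuclei were was not tested. This larger class had 63.6, 92.2 and 23.6 CPM, with pool 3 among the values of the other classes. Valve interstitial-like nuclei had 29.2, 26.7 and 26.7 CPM, smooth muscle-like 18.4 ± 1.74 CPM and cardiomyocyte-like 8.19 ± 2.43 CPM. Erythroid-like nuclei had 0 Tgfb1 UMIs of 249034, which allows a level of up to 12.05 CPM over the 3 pools.

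Tgfb2, the ligand of the outflow tract cushions, was at 530, 454 and 465 CPM in smooth muscle-like nuclei. In valve interstitial-like nuclei it was at 433, 398 and 410 CPM, and in pericyte-like nuclei at 376, 341 and 237 CPM. At the clustering used, the smooth muscle-like values were all above the valve interstitial-like ones, and these all above the pericyte-like ones. At Leiden resolutions 0.5 and 2 the smooth muscle-like and valve interstitial-like ranges overlapped. Fibroblast-like (266 ± 36.4 CPM) and mesothelial-like (255 ± 11.1 CPM) nuclei followed and overlapped, and endothelial-like nuclei had 129 ± 31.4 CPM. The lowest mean, 79.8 ± 5.18 CPM in cardiomyocyte-like nuclei, was 6.06-fold under the highest. Macrophage-like nuclei were listed at 217, 85.0 and 184 CPM, and in the same pools the 10 smooth muscle markers summed to 855 to 1457 CPM there, with none at 0; the part of other cells' RNA in that level was not tested.

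Tgfb3 had its highest means in 4 classes that could not be told apart and was low in endothelial-like and cardiomyocyte-like nuclei. Its means were 77.1 ± 38.8 CPM in pericyte-like, 76.8 ± 7.90 CPM in valve interstitial-like, 75.3 ± 14.3 CPM in mesothelial-like and 68.6 ± 4.37 CPM in fibroblast-like nuclei. Neighbours in this order overlapped, so these 4 classes cannot be ranked. The smooth muscle-like values of 61.7, 62.2 and 41.7 CPM also overlapped with the pericyte-like and mesothelial-like ones. Endothelial-like nuclei had 12.5, 9.78 and 10.6 CPM and cardiomyocyte-like nuclei 11.5, 10.8 and 5.31 CPM, while lymphatic endothelial-like nuclei had 51.4 ± 2.62 CPM. The endothelial-like values lay below all values of the lymphatic class.

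**Figure D1:**
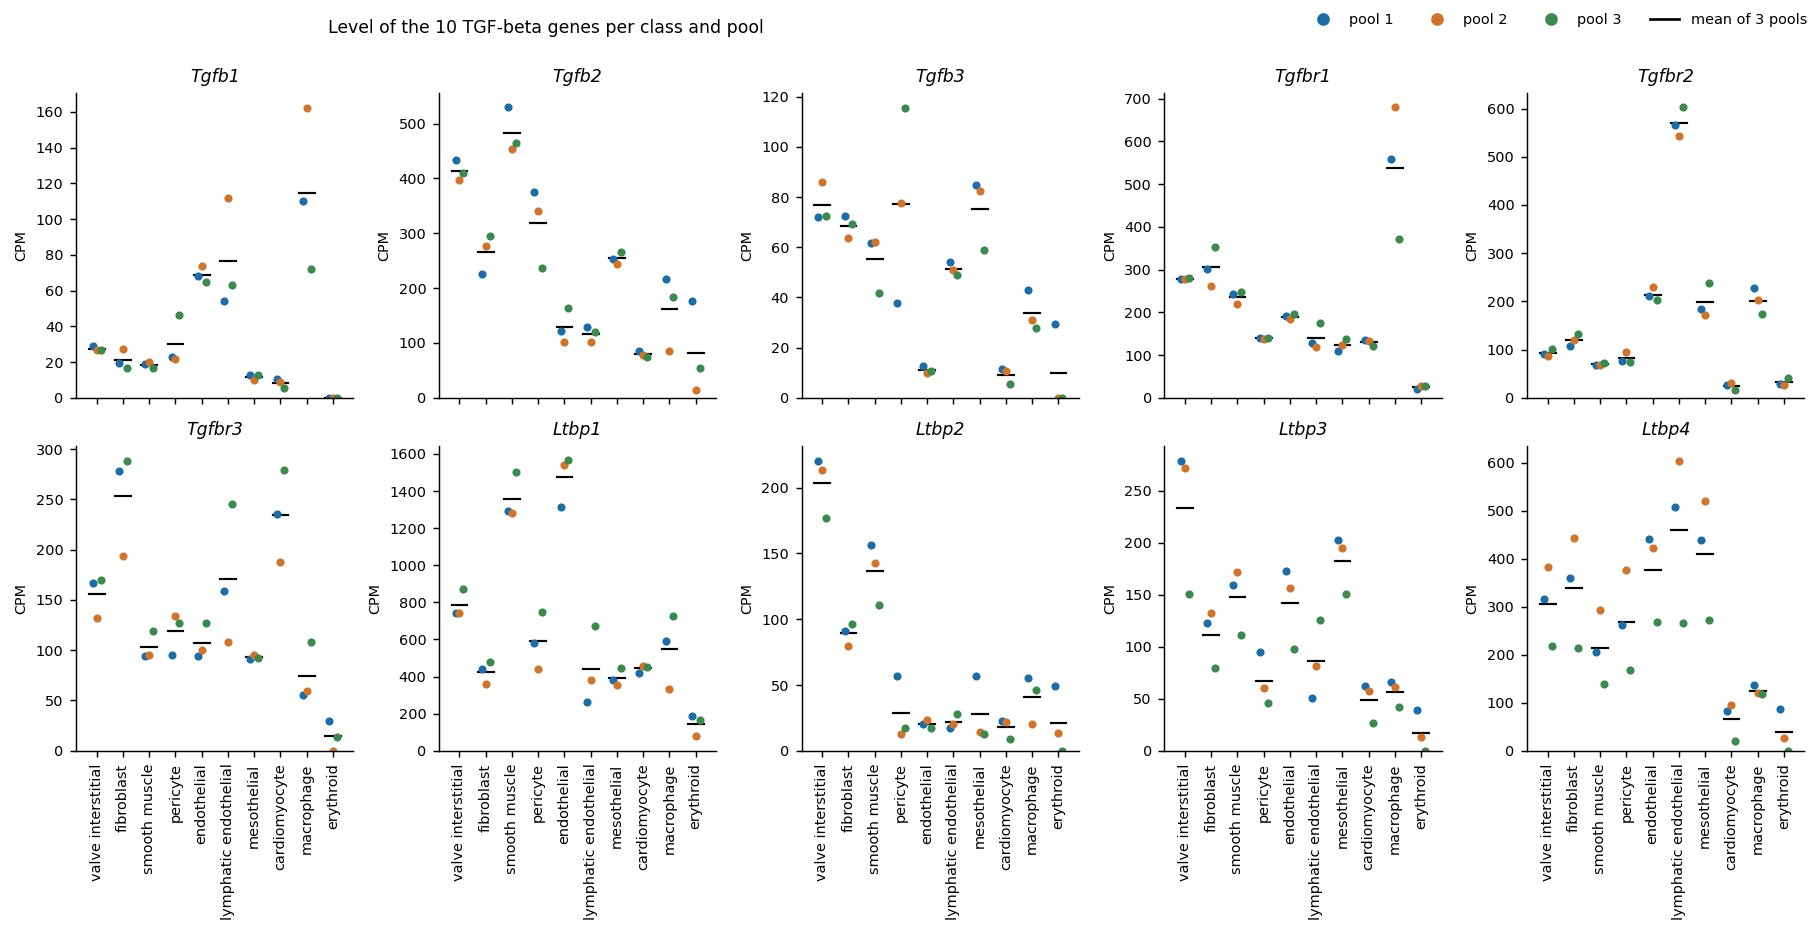
Level of each of the 10 genes (y axis, CPM, starting at 0 and scaled per gene) in the 10 classes (x axis), with a point for each of 3 pools and a black line at their mean. At the clustering used, Tgfb1 is highest in the macrophage-like and endothelial classes, Tgfb2 in smooth muscle-like and valve interstitial-like nuclei, Tgfbr2 in lymphatic endothelial-like nuclei and Ltbp2 in valve interstitial-like nuclei.

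The receptors had other peaks than the ligands. Tgfbr1, the type I receptor, was at 559, 680 and 371 CPM in macrophage-like nuclei, above every value of each other class at the clustering used. At Leiden resolution 0.5, in the larger macrophage-like class described above, it was 400, 454 and 229 CPM. That overlapped with the fibroblast-like range of 289 to 342 CPM. It was at 302, 262 and 354 CPM in fibroblast-like nuclei and at 278, 278 and 281 CPM in valve interstitial-like nuclei. The latter pools differed by less than in any other class but the pericyte-like, where the SD was 1.12 CPM around 139 CPM. Erythroid-like nuclei had 6 Tgfbr1 UMIs, and the other classes lay between 124 and 236 CPM.

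Tgfbr2, the type II receptor, was at 566, 543 and 603 CPM in lymphatic endothelial-like nuclei, 2.67-fold above the endothelial-like class with 210, 229 and 202 CPM. These ranges were far apart. Macrophage-like (202 ± 27.1 CPM) and mesothelial-like (198 ± 35.5 CPM) nuclei overlapped with the endothelial-like class. Valve interstitial-like nuclei had 90.01, 85.9 and 102 CPM, smooth muscle-like 69.2 ± 3.12 CPM and cardiomyocyte-like 24.1 ± 6.67 CPM. The last of these overlapped with the 32.5 ± 7.47 CPM of erythroid-like nuclei, which rested on 8 UMIs.

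Tgfbr3, the accessory receptor betaglycan, was at 278, 194 and 288 CPM in fibroblast-like nuclei and at 235, 188 and 279 CPM in cardiomyocyte-like nuclei. Both ranges overlapped, and cardiomyocyte-like nuclei thus combined a high Tgfbr3 level with the lowest Tgfbr2 mean of the 10 classes. Valve interstitial-like nuclei had 166, 132 and 169 CPM. From there down to macrophage-like nuclei (74.0 ± 29.3 CPM) every neighbour in the order overlapped with the next.

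Among the latency proteins, Ltbp1, which binds latent TGF-beta and fibronectin-rich matrix, stood at 1312, 1542 and 1567 CPM in endothelial-like nuclei. In smooth muscle-like nuclei it stood at 1291, 1284 and 1502 CPM, and in valve interstitial-like nuclei at 744, 743 and 871 CPM. The first pair overlapped and both lay above all valve interstitial-like values. Fibroblast-like nuclei had 427 ± 60.2 CPM, and the erythroid-like class had 144 ± 55.1 CPM from 37 UMIs.

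Ltbp2, which binds fibrillin but not latent TGF-beta, had its highest level in the valve class at the clustering used. It was 220, 213 and 177 CPM in valve interstitial-like, 156, 143 and 111 CPM in smooth muscle-like and 91.3, 79.5 and 96.6 CPM in fibroblast-like nuclei. None of these 3 ranges overlapped with the next, but the order turned with the clusters. At Leiden resolution 0.5 it was 176, 173 and 139 CPM in fibroblast-like, 152, 146 and 117 CPM in smooth muscle-like and 141, 129 and 115 CPM in valve interstitial-like nuclei. Without 2 clusters with a leading neuronal gene, smooth muscle-like nuclei had 198, 172 and 164 CPM, which overlapped with the valve interstitial-like range. At the clustering used the means of the other 7 classes lay between 17.8 and 40.5 CPM, with 20.5 ± 3.06 CPM in endothelial-like nuclei.

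Ltbp3, which is needed for TGF-beta1 secretion in several tissues, was at 279, 272 and 151 CPM in valve interstitial-like nuclei and at 202, 195 and 151 CPM in mesothelial-like nuclei. The ranges of both classes overlapped, with pool 3 the lowest in each. Ltbp4, the form of elastic tissue, was at 508, 604 and 266 CPM in lymphatic endothelial-like, 440, 520 and 272 CPM in mesothelial-like and 441, 422 and 269 CPM in endothelial-like nuclei. Valve interstitial-like nuclei had 317, 383 and 219 CPM. From the lymphatic to the smooth muscle-like class (213 ± 77.2 CPM) every neighbour overlapped, again with pool 3 the lowest.

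The order of the pools was shared between classes for several latency proteins. Leaving out the erythroid-like class, pool 3 had the lowest Ltbp4 level in 9 of 9 classes and the lowest Ltbp3 level in 8 of 9, the lymphatic endothelial-like class being the exception. The median over classes of the pool 3 level, divided by the mean of pools 1 and 2, was 0.560 for Ltbp4 and 0.627 for Ltbp3. The other way round, pool 3 was highest for Ltbp1 in 8 of 9 classes (ratio 1.196) and for Tgfbr3 in 7 of 9 (1.26). Pool 3 also had the lowest mitochondrial share and the lowest median UMI total given above. The part of these in the pool differences was not tested. In the tests below the pool is a block, which takes up the part of such a shift that the classes share. The shifts were not equal: Ltbp4 was at 82.1, 96.1 and 20.5 CPM in cardiomyocyte-like and at 136, 121 and 118 CPM in macrophage-like nuclei.

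**Figure D2:**
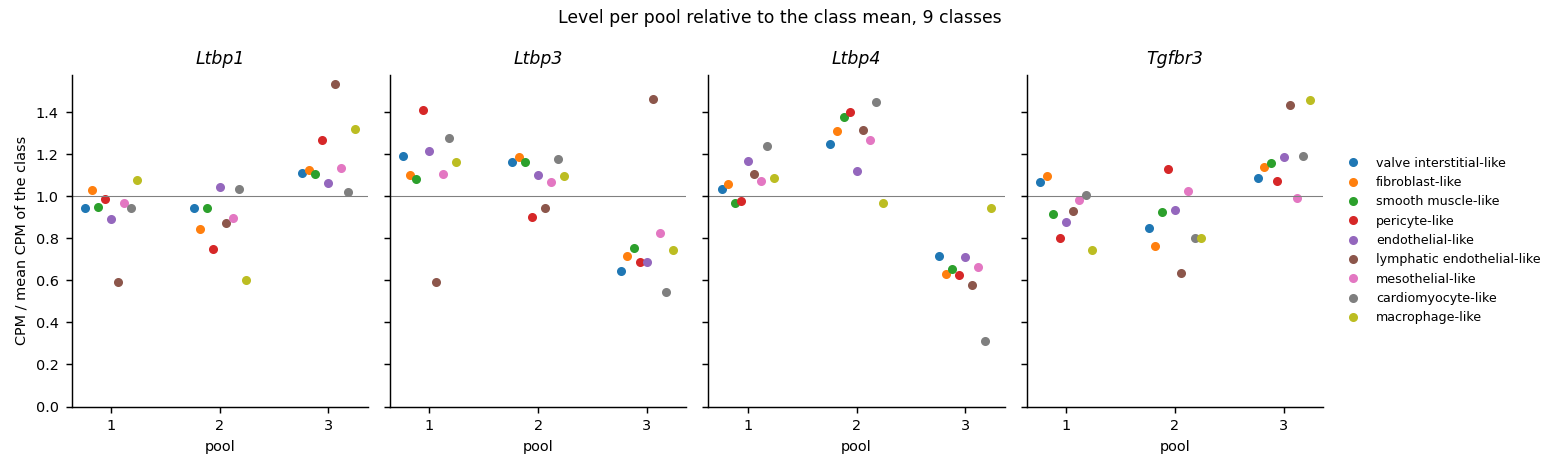
Level of Ltbp1, Ltbp3, Ltbp4 and Tgfbr3 in each pool (x axis) divided by the mean of the class over 3 pools (y axis, a ratio), with a point for each of 9 classes, offset sideways. For Ltbp4 all 9 points of pool 3 lie below 1, and for Ltbp1 all 9 lie above it.

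The share of nuclei with a UMI was also taken at equal depth, with each nucleus thinned to 1000 UMIs. In valve interstitial-like nuclei it was 27.3% ± 1.58 for Tgfb2 (53.5% without thinning), 7.55% ± 1.19 for Tgfb3 (22.9%) and 1.99% ± 0.174 for Tgfb1 (8.57%). It was 17.3% ± 1.93 for Ltbp2 (41.3%) against 1.21% ± 0.179 in endothelial-like nuclei (7.096%). Erythroid-like nuclei, taken from red cell precursors, served as a background of free RNA and had a median depth of 2821 UMIs against 3604 in the valve interstitial-like class. There the thinned shares were 3.95% ± 4.001 for Tgfb2, 1.33% ± 2.31 for Tgfb3 and for Ltbp2, and 6.75% ± 1.91 for Ltbp1, on 22 to 26 nuclei per pool. No thinned Tgfb1 UMI was seen there in any pool, and with so few nuclei a share of 1.99% cannot be told from that of the background. The 6 erythroid markers summed to 610612 to 877359 CPM in that class, so few of its UMIs were left for other genes, and its shares understate a background at equal depth. The thinned shares are therefore given as values and are not set above that background.

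The first direct comparison was with the endothelial-like class. It pools 7 clusters, some with leading genes of arterial endothelium, and is not the endothelial layer of the leaflet alone, so the differences are between the pooled classes. In the edgeR quasi-likelihood test on summed counts, 9 of 10 members passed an adjusted p of 0.05, 6 higher and 3 lower in valve interstitial-like nuclei, where 38.5% of all 14351 genes tested passed, 17.6% higher and 20.9% lower. The log2 fold change of Ltbp2 was 3.33 (SE 0.19, adjusted p 1.52e-17), that of Tgfb3 2.77 (SE 0.18, adjusted p 2.27e-16) and that of Tgfb2 1.69 (SE 0.20, adjusted p 3.32e-09). These 3 were higher in all 3 pools. Smaller rises passed for Ltbp3 (0.71), Tgfbr3 (0.56) and Tgfbr1 (0.55). Tgfb1 was lower, with a log2 fold change of -1.31 (SE 0.15, adjusted p 1.86e-09), Tgfbr2 with -1.21 (SE 0.15, adjusted p 9.37e-09) and Ltbp1 with -0.92 (SE 0.20, adjusted p 2.99e-04). Tgfb2 was not equal over the endothelial-like clusters, with 301, 276 and 362 CPM in the one led by Kcnc2 and Fam155a. Ltbp4 did not pass (log2 fold change -0.31, SE 0.19, adjusted p 0.216). Without pool 1 the Tgfbr3 call was lost (0.42, adjusted p 0.147) and 8 members passed, and without the pool block it was lost too (0.55, adjusted p 0.0862).

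Against smooth muscle-like nuclei, 4 of 10 members passed, 3 higher and 1 lower, where 29.9% of all genes did, 14.4% higher and 15.5% lower. Ltbp1 was lower in valve interstitial-like nuclei, with a log2 fold change of -0.92 (SE 0.20, adjusted p 3.76e-04). Ltbp3 was higher by 0.52 (SE 0.15, adjusted p 0.00746), Tgfbr3 by 0.49 (SE 0.16, adjusted p 0.0188) and Ltbp2 by 0.45 (SE 0.16, adjusted p 0.0295). No ligand passed: Tgfb2 differed by -0.35 (SE 0.19, adjusted p 0.185). The Ltbp1 difference passed in all 16 alternatives. The 3 rises did not: without the pool block Ltbp1 alone passed, without pools 1, 2 and 3 in turn 1, 2 and 3 members passed, and the Ltbp2 call was lost in each of these and fell to 0.05 (adjusted p 0.905) when 2 clusters with a leading neuronal gene, 1 of them smooth muscle-like, were left out. With DESeq2 that call was lost as well (adjusted p 0.368), and at Leiden resolution 0.5 the difference was -0.25 (adjusted p 0.458). The Tgfbr3 call was lost at that resolution (0.37) and with doublets kept (0.38).

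Against fibroblast-like nuclei, 5 of 10 members passed, 4 higher and 1 lower, where 17.5% of all genes did, 8.13% higher and 9.36% lower. Ltbp2 was higher by 1.26 (SE 0.18, adjusted p 7.09e-07), Ltbp3 by 1.10 (SE 0.16, adjusted p 1.16e-06), Ltbp1 by 0.93 (SE 0.21, adjusted p 7.04e-04) and Tgfb2 by 0.68 (SE 0.20, adjusted p 0.0107). Tgfbr3 was lower, with a log2 fold change of -0.65 (SE 0.16, adjusted p 0.00245). So 3 of the 4 latency genes were higher in the valve class than in the fibroblast-like class at the clustering used. Ltbp1, 1 of these, was lower than in smooth muscle-like nuclei, as given above. Without pool 1, and likewise without the pool block, the Tgfb2 and Tgfbr3 calls were lost and 3 members passed. At a coarser clustering (Leiden resolution 0.5), where the cluster led by Abca8a and Ebf2 took the name fibroblast-like and had Abi3bp and Ctnna2 among its 10 leading genes, the Ltbp2 difference was -0.32 (adjusted p 0.451). The Tgfb2 (0.29) and Tgfbr3 (-0.35) calls were lost there too.

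**Figure D3:**
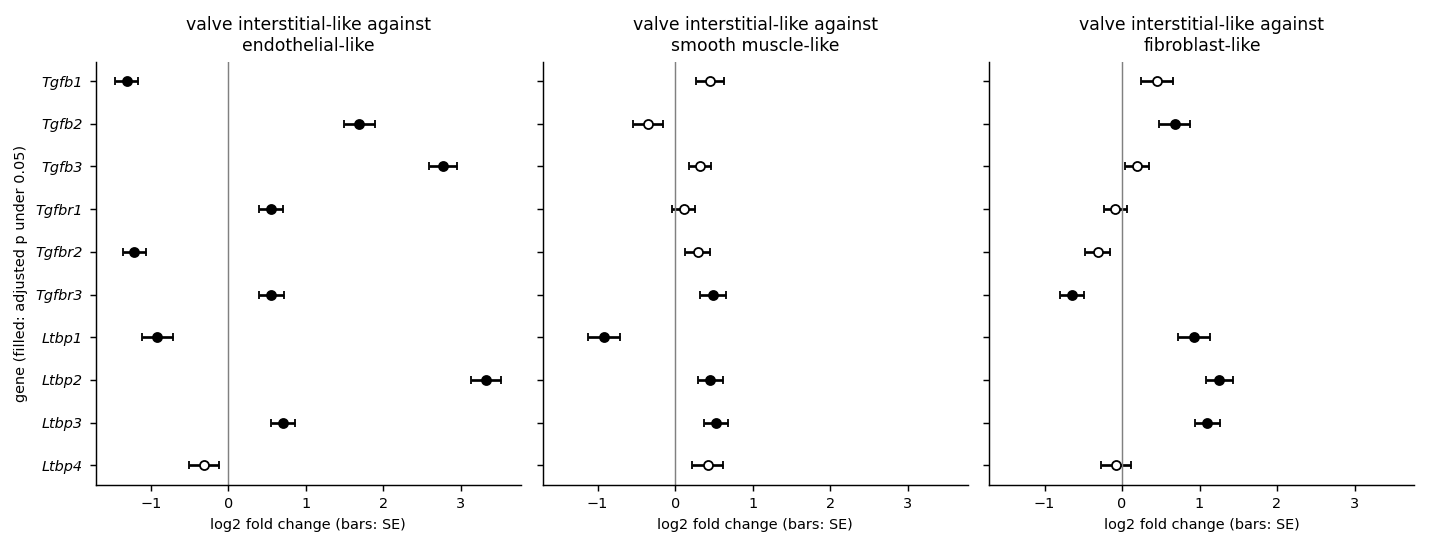
Log2 fold change (x axis) of each member (y axis) in valve interstitial-like nuclei against endothelial-like, smooth muscle-like and fibroblast-like nuclei (1 panel each), with bars of 1 SE and filled points where the edgeR adjusted p was under 0.05. At the clustering used, Ltbp2 lies to the right of 0 in all panels, which turned against smooth muscle-like and fibroblast-like nuclei at Leiden resolution 0.5, and Tgfb1, Tgfbr2 and Ltbp1 lie to the left against endothelial-like nuclei.

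Each class was also set against the mean of the 9 others. In valve interstitial-like nuclei 9 members passed, 8 higher and 1 lower, where 28% of all genes passed, 20.5% higher and 7.5% lower. In this comparison the small erythroid-like sums moved the median of all genes to 0.25 on the log2 scale, and leaving that class out, a step chosen after the data were seen, brought it to 0.02. Without it 8 members passed, and these values are given next. Ltbp2 was higher by 2.39 (SE 0.15, edgeR adjusted p 3.27e-14), Ltbp3 by 1.27 (SE 0.11, adjusted p 3.59e-11), Tgfb2 by 1.05 (SE 0.12, adjusted p 1.38e-08) and Tgfb3 by 0.98 (SE 0.12, adjusted p 1.22e-07). Tgfbr1 was higher by 0.47, and Ltbp4 (0.33) and Ltbp1 (0.33) passed narrowly, with adjusted p of 0.0498 and 0.0414. Tgfbr2 was lower (-0.52, adjusted p 5.91e-04). With all classes, leaving out pool 2 lowered the count from 9 to 5, with the calls of Ltbp1, Ltbp4, Tgfbr2 and Tgfbr3 lost. Those of Ltbp1, Tgfbr2 and Tgfbr3 were also lost without pool 1, and those of Ltbp1 and Ltbp4 without pool 3. Tgfbr2 was at -0.19 (adjusted p 0.366) without the lymphatic class. With at most 2% mitochondrial UMIs, which left 7 classes, Tgfbr2 was at -0.06, Ltbp1 at 0.17 and Tgfbr3 at 0.17, and none of them passed. At Leiden resolution 0.5 the Ltbp1 and Tgfbr3 calls were lost. Of 16 alternatives in all, the Ltbp1 call was lost in 10, Tgfbr3 in 8, Tgfbr2 in 5 and Ltbp4 in 3.

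The other classes had their own sets. The median log2 fold change of all genes lay between 0.12 and 0.31 in the contrasts of 8 of these classes and was -1.67 for erythroid-like nuclei, so each count of the 8 is followed by the one without the erythroid-like class. In smooth muscle-like nuclei 7 members passed (33.6% of all genes, 26% higher and 7.63% lower). Ltbp2 (1.81), Ltbp1 (1.41), Tgfb2 (1.41), Ltbp3 (0.79), Tgfb3 (0.65) and Tgfbr1 (0.53) were higher and Tgfbr2 (-0.78) was lower. Without the erythroid-like class 9 passed (41.7% of all genes), with Tgfb1 (-0.67) and Tgfbr3 (-0.35) also lower. The Tgfb3 call was lost without pool 2, and the Tgfbr1 call with at most 2% mitochondrial UMIs (0.09). In endothelial-like nuclei 8 passed (29.8% of all genes, 23.4% higher and 6.38% lower), with Tgfb1 (2.28), Ltbp1 (1.41), Tgfbr2 (0.89), Ltbp4 (0.80) and Ltbp3 (0.58) higher and Tgfb3 (-2.08), Ltbp2 (-1.39) and Tgfb2 (-0.86) lower. Without the erythroid-like class 9 passed (36.6% of all genes), with Tgfbr3 (-0.40) also lower and Tgfb1 at 1.33 (edgeR adjusted p 1.74e-12). Without pool 1 the Ltbp2 and Tgfb3 calls were lost here (edgeR adjusted p 0.116 and 1.00). In pools 2 and 3 the erythroid-like class, part of that mean, held 0 and 0 Tgfb3 UMIs and 1 and 0 Ltbp2 UMIs. That fit therefore cannot tell whether the low levels rest on pool 1. Endothelial-like Tgfb3 was at 9.78 and 10.6 CPM in these pools, against 63.9 and 69.4 CPM in fibroblast-like nuclei.

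In fibroblast-like nuclei 6 members passed (24.7% of all genes, 19.2% higher and 5.52% lower), with Tgfbr3 (1.12), Ltbp2 (0.91), Tgfb3 (0.79), Tgfbr1 (0.75) and Ltbp4 (0.54) higher and Ltbp1 (-0.64) lower. With the erythroid-like class left out 7 passed (29.5% of all genes), with Tgfb1 (-0.66) also lower. The Ltbp4 call was lost without pool 2, and the Ltbp1 call at Leiden resolution 0.5. Both were lost without the pool block (edgeR adjusted p 0.189 and 0.0555). In macrophage-like nuclei 7 passed (22.2% of all genes, 17.4% higher and 4.8% lower), with Tgfb1 (2.96), Tgfbr1 (1.58) and Tgfbr2 (0.70) higher and Ltbp4 (-1.03), Ltbp3 (-0.99), Tgfbr3 (-0.93) and Tgfb2 (-0.55) lower. Leaving out the erythroid-like class, 8 passed (25.7% of all genes), with Ltbp1 (-0.41) also lower and Tgfb1 at 1.97. Without pool 1, 2 members passed in macrophage-like nuclei. At Leiden resolution 0.5 the macrophage-like class held 440 nuclei in place of 261, and 3 members passed. Tgfbr2 was then at 0.08 (edgeR adjusted p 0.741), with Ltbp3 at -0.29, Tgfb2 at -0.05 and Tgfbr3 at -0.03. At the clustering used, the Tgfb2 call was lost whichever pool was left out.

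In cardiomyocyte-like nuclei 7 members passed (45.1% of all genes, 31.3% higher and 13.8% lower). Tgfbr2 (-2.24), Tgfb3 (-1.98), Ltbp4 (-1.77), Tgfb2 (-1.27), Ltbp2 (-1.22) and Ltbp3 (-0.82) were lower and Tgfbr3 (1.39) was higher. When erythroid-like nuclei were left out 9 passed (59.4% of all genes), with Tgfb1 (-1.71) and Tgfbr1 (-0.39) also lower. Without pool 1 the Tgfb3 (-1.19, edgeR adjusted p 1.00) and Ltbp2 (-0.89, edgeR adjusted p 0.0655) calls were lost. Erythroid-like nuclei had no Tgfb3 UMI in pools 2 and 3, so that fit cannot tell whether the low Tgfb3 level rests on pool 1. Cardiomyocyte-like Tgfb3 was at 10.8 and 5.31 CPM in these pools. One cardiomyocyte-like cluster of 722 nuclei, led by Mb and Fabp3, had a median mitochondrial share of 3.55% and a median of 2130 UMIs. Its Ltbp4 level was 348, 357 and 225 CPM, against 15.2 ± 7.74 CPM in the largest cardiomyocyte-like cluster. Without that cluster the class had 28.7, 18.9 and 10.1 CPM of Ltbp4 in place of 66.2 ± 40.2, 3.88 ± 0.990 CPM of Tgfb3 in place of 9.19 ± 3.38 and 8.27 ± 1.42 CPM of Ltbp2 in place of 17.8 ± 7.56. Tgfb1 was then at 5.08 ± 0.787 CPM in place of 8.19 ± 2.43, and Tgfbr3 at 252 ± 38.7 CPM in place of 234 ± 45.6.

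In mesothelial-like nuclei 7 members passed (45% of all genes, 32.8% higher and 12.2% lower), with Tgfb3 (1.30), Ltbp3 (1.23), Ltbp4 (1.14), Tgfbr2 (0.97) and Tgfb2 (0.47) higher and Ltbp1 (-0.48) and Tgfbr1 (-0.44) lower. Without the erythroid-like class 9 passed (56% of all genes), with Tgfb1 (-1.33) and Tgfbr3 (-0.38) also lower. The Ltbp1 and Tgfbr1 calls were lost without pool 1 and without pool 3, and the Tgfb2 call without pool 2. Tgfb2 was also lost with RLE scaling (0.26, adjusted p 0.154), with DESeq2 (0.27, adjusted p 0.145), with no block and without the lymphatic class (0.35, adjusted p 0.0858). In lymphatic endothelial-like nuclei 6 passed (17.4% of all genes, 12.5% higher and 4.95% lower), with Tgfb1 (2.38), Tgfbr2 (2.36) and Ltbp4 (0.99) higher and Tgfb2 (-1.10), Ltbp1 (-0.73) and Tgfbr1 (-0.59) lower. With erythroid-like nuclei left out 7 passed (21.3% of all genes), with Ltbp3 (-0.63) also lower and Tgfb1 at 1.42. The Tgfbr1 call was lost without any 1 pool and at Leiden resolution 0.5 (-0.53). The Ltbp1 call was lost without pool 1, with doublets kept (-0.40) and without the pool block (-0.70). In pericyte-like nuclei 2 passed (9.64% of all genes, 8.44% higher and 1.21% lower), Tgfb2 (0.60) and Tgfbr2 (-0.66), and leaving out pools brought this to 0 or 1. Both calls were lost with at most 2% mitochondrial UMIs (0.39 and -0.18) and without the lymphatic class (0.47 and -0.41). Leaving out erythroid-like nuclei, 4 passed there (10.5% of all genes), with Tgfbr1 (-0.73) and Ltbp3 (-0.80) also lower. In erythroid-like nuclei 1 passed (6.89% of all genes, 1.57% higher and 5.32% lower), Tgfbr1 (-1.81), which was lost without any 1 pool.

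Within classes the members varied between clusters, which were built from other genes and are named by their 2 leading genes; no test was made within a class. The valve interstitial-like class had 2 clusters, one led by Rmst and Pcdh15 (930 nuclei) and one by Ctnna2 and Abi3bp (614 nuclei). Ltbp2 was at 140, 132 and 113 CPM in the first and at 376, 362 and 315 CPM in the second. Tgfb1 was at 32.03, 33.8 and 31.9 CPM in the first and at 23.8, 13.5 and 15.5 CPM in the second, and Tgfbr1 at 265 ± 3.28 and 307 ± 13.8 CPM. For these 3 of 10 members the pool values did not overlap, which was so for 23.1% of the 10158 genes compared. The other 7 members overlapped. Compared within each pool, Tgfb2 and Tgfb3 were nonetheless higher and Tgfbr3 and Ltbp3 lower in the second cluster in all 3 pools, with no test.

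Levels also differed between endothelial-like clusters. Ltbp1 was at 4230, 4391 and 4735 CPM in the cluster led by Dlgap2 and Cntnap5a and at 2191, 2399 and 2499 CPM in the one led by Grid1 and Col23a1. It was at 349, 447 and 483 CPM in the one led by Mannr and Ptchd1, which had Sema3g and Gja5, genes of arterial endothelium, among its 10 leading genes. Ltbp4 ran the other way, with 908, 828 and 615 CPM in that last cluster and 163, 161 and 102 CPM in the one led by Dlgap2 and Cntnap5a. Tgfb2 was at 301, 276 and 362 CPM in the cluster led by Kcnc2 and Fam155a, which had the Wnt ligand genes Wnt9b and Wnt4 among its leading genes, and at 24.8, 21.6 and 20.2 CPM in the one led by Grid1 and Col23a1. The same Kcnc2 cluster had 113, 117 and 91.3 CPM of Tgfb1 and 305, 312 and 317 CPM of Tgfbr2, above every pool value of the other 5 endothelial-like clusters with levels in both genes; a cluster of 50 dividing nuclei was too small for levels.

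Among smooth muscle-like clusters, the one led by Clca3a2 and Pi15 had the lowest Tgfb2 level, with 292, 247 and 317 CPM, and the highest Tgfbr3 level, with 147, 152 and 171 CPM. The one led by Mylk4 and Ptprz1 had 706, 581 and 765 CPM of Tgfb2 and 55.4, 61.3 and 52.1 CPM of Tgfbr3. Ltbp2 was at 58.3 ± 19.9 CPM in the first and at 186 ± 7.01 CPM in the second, without overlap. The Clca3a2 cluster is the smooth muscle-like cluster with a leading neuronal gene (Syt1) left out above.

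**Figure D4:**
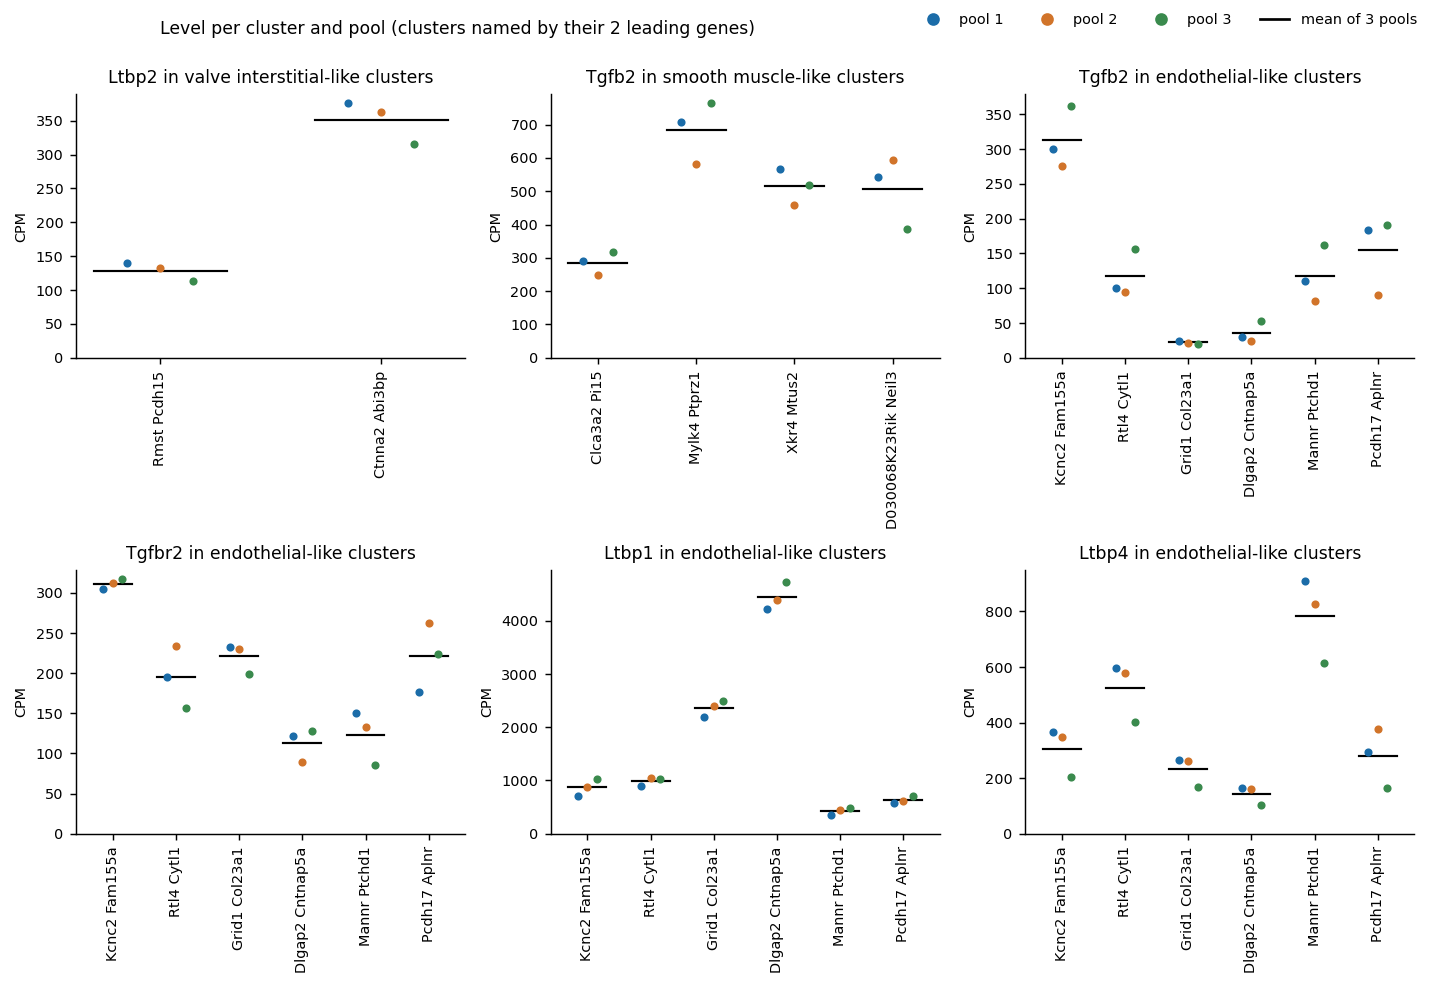
Level (y axis, CPM, from 0) of Ltbp2 in the valve interstitial-like clusters, Tgfb2 in the smooth muscle-like clusters and Tgfb2, Tgfbr2, Ltbp1 and Ltbp4 in the endothelial-like clusters (x axis, named by 2 leading genes), with a point per pool and a line at the mean. Ltbp1 is at 4230 CPM or more in every pool of the Dlgap2 Cntnap5a cluster and Ltbp4 is highest in the Mannr Ptchd1 cluster.

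The rest of the pathway was read from 4 lists. Among 15 genes of matrix storage and activation, 10 were higher and 2 lower in the valve interstitial-like class against the mean of the others, where 28% of all genes passed, 20.5% higher and 7.5% lower. Their median log2 fold change was 0.99 against 0.25 for all genes, and the median of all genes was 0.02 without the erythroid-like class. The lists' values against the other classes below are not centred on that median. Fibroblast-like nuclei had 9 of the 15 higher and none lower against their own other classes, beside 19.2% and 5.52% of all genes. In valve interstitial-like against fibroblast-like nuclei 3 were higher and 4 lower, beside 8.13% and 9.36% of all genes, with a median of -0.04. The highest were Thbs1 (2.83), which encodes the activator thrombospondin-1, Adamtsl2 (2.43), a matrix protein that binds LTBP1, and Fbn2 (2.24), which encodes fibrillin-2; Itgb3 (-1.39) and Lrrc32 (-0.94) were lower. Thbs1 was at 503, 599 and 432 CPM in valve interstitial-like nuclei and at 37.1 ± 5.66 CPM in smooth muscle-like nuclei, with 265 CPM in the next class, the lymphatic endothelial-like. Itgb8, whose integrin releases TGF-beta from its complex, was higher against endothelial-like nuclei by 4.25 (edgeR adjusted p 1.30e-15), with 162, 150 and 187 CPM against 8.29, 6.37 and 12.1 CPM, though its highest mean was 261 CPM in mesothelial-like nuclei. Nrros, which encodes a protein that tethers latent TGF-beta1 on macrophages, was at 223 CPM in macrophage-like nuclei and at 10.5 CPM in endothelial-like nuclei, the next class.

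Of 5 co-receptor and modulator genes, 3 were higher in valve interstitial-like nuclei, beside 20.5% of all genes: Bambi (1.31), Eng (0.99) and Acvr1 (0.95). Against endothelial-like nuclei all 5 passed and 4 were lower, where 38.5% of all genes passed and 20.9% were lower, with Eng, the endothelial co-receptor endoglin, at -2.05. Of 12 genes of SMAD transduction and its feedback, 10 were higher and none lower against the mean of the other classes, beside 20.5% and 7.5% of all genes, led by Pmepa1 (1.37), Tgif1 (1.34) and the inhibitor Smad7 (1.07). Against endothelial-like nuclei 4 of the 12 were higher and 2 lower, beside 17.6% and 20.9% of all genes. Smad7 was lower there (-0.72) and Pmepa1 (1.18) and Smad3 (1.15) were higher. Against smooth muscle-like nuclei 4 were higher and none lower (14.4% and 15.5% of all genes), and against fibroblast-like nuclei 5 and 1 (8.13% and 9.36%). Endothelial-like nuclei had 7 of the 12 higher and 1 lower against their own other classes, beside 23.4% and 6.38% of all genes. Of 11 genes known to respond to TGF-beta in other cells, 6 were higher and 2 lower, beside the same 20.5% and 7.5% of all genes, with Tgfbi (3.28), Postn (2.92) and Snai2 (2.48) highest and Lox (-0.94) and Fn1 (-0.54) lowest. Against smooth muscle-like nuclei, where 14.4% of all genes were higher and 15.5% lower, that list was divided, with 4 higher, led by Tgfbi (3.19) and Postn (2.60), and 5 lower, among them Lox (-2.04). Against fibroblast-like nuclei 2 of the 11 were higher and 2 lower, beside 8.13% and 9.36% of all genes, with a median of 0.05. Against endothelial-like nuclei 8 were higher and 3 lower, beside 17.6% and 20.9% of all genes.

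Genes whose log2 level was most like a member's over the 30 sums, which share pools and classes, were sought among 14351 genes. For Ltbp2 they were Clmp (r = 0.896), Abi3bp (0.860) and Epha3 (0.854), for Tgfb2 Hs6st2 (0.916), Spats2l (0.914) and Rbms3 (0.911), and for Tgfb3 Sgms2 (0.919), Lrrk1 (0.917) and Sdc2 (0.904). For Tgfb1 they included Lyl1 (0.943) and Irak4 (0.942), for Tgfbr3 Zbtb20 (0.970), for Ltbp1 Smad6 (0.874) and for Ltbp4 Tagln2 (0.963). Among the members, Ltbp3 and Ltbp4 were most alike (r = 0.899), followed by Tgfb2 and Tgfb3 (0.823), and Tgfbr2 and Ltbp2 least (0.046). Erythroid-like sums are among the 30, with 5 Ltbp3 and 11 Ltbp4 UMIs in all, and r was not taken without them. Both of these genes were also lowest in pool 3 in most classes, as given above.

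An EGFP UMI, read from the reporter allele of Scx, was seen in 10.4% ± 3.35 of valve interstitial-like and 5.29% ± 1.57 of endothelial-like nuclei. It was also seen in 6.26% ± 2.55 of mesothelial-like, 1.96% ± 0.746 of cardiomyocyte-like and 1.19% ± 0.524 of smooth muscle-like nuclei. The share was 1.77% in macrophage-like, 1.70% in fibroblast-like and 1.61% in pericyte-like nuclei. No such UMI was seen in the 73 erythroid-like and 117 lymphatic endothelial-like nuclei. With nuclei thinned to 1000 UMIs, mesothelial-like nuclei (median depth 9964 UMIs) had a share of 0.555% ± 0.576 and cardiomyocyte-like nuclei (4912 UMIs) 0.480% ± 0.120. Endothelial-like nuclei (4452 UMIs) then had 0.916% ± 0.174 and the valve class (3604 UMIs) 3.44% ± 0.790. Which nuclei held the UMI as free RNA was not tested, and a nucleus without one may still carry the transcript, so the pairs below compare nuclei by a detected UMI and not by expression. Nuclei with an EGFP UMI were each matched to a nucleus without one of the same pool, cluster and similar depth, in 78, 51 and 31 valve interstitial-like pairs and 77, 48 and 24 endothelial-like pairs. None of 9 members tested passed in the valve interstitial-like pairs and none of 8 in the endothelial-like pairs by edgeR, where 0.286% and 0.0304% of all genes passed. At an unadjusted p under 0.05 there were 3 and 2 members by edgeR and 0 and 1 by DESeq2, which also called no member after adjustment. Over all genes, 468 of 5239 and 388 of 6587 were under that p by edgeR and 73 and 70 by DESeq2. Of the 15 genes that passed in the valve interstitial-like pairs, 3 belong to the lists above and were higher with EGFP: Thbs1 (1.11, edgeR adjusted p 0.00202), Ccn2 (1.42, edgeR adjusted p 8.80e-04) and Col1a1 (1.22, edgeR adjusted p 8.80e-04). Without pool 1, without pool 3 or without the pool block, no gene passed in these pairs, and DESeq2 called 2 genes. In valve interstitial-like pairs Ltbp2 was at 318, 294 and 264 CPM with EGFP and 200, 187 and 168 CPM without, a log2 difference of 0.67 (SE 0.20, adjusted p 0.209). It was higher in 3 of 3 pools but did not pass. Tgfb2 (0.64, adjusted p 0.313) was higher in 2 of 3 pools and Ltbp3 (0.59, adjusted p 0.316) in 3 of 3. Ltbp3 in endothelial-like pairs was at 305, 239 and 179 CPM with EGFP and 213, 171 and 79.7 CPM without (0.59, adjusted p 0.539), also higher in 3 of 3 pools. Other members had 1 direction in all 3 pools as well, and none passed. The share of all genes with 1 direction in all 3 pools was not taken here. In valve interstitial-like pairs Ltbp4 (0.32) was higher and Ltbp1 (-0.22) and Tgfbr1 (-0.24) were lower with EGFP. In endothelial-like pairs Tgfbr1 (0.10) was higher, and Tgfbr2 (-0.31) and Tgfbr3 (-0.26) were lower. There Tgfb2 (-0.21) and Ltbp2, which was not tested, were lower in pools 1 and 2. In pool 3 they were tied, with 15 Tgfb2 UMIs and 1 Ltbp2 UMI both with and without EGFP. In endothelial-like pairs Ltbp4 was at 840, 596 and 428 CPM with EGFP and 538, 436 and 249 CPM without (0.60, SE 0.16, adjusted p 0.235). A test of the difference between both classes, added after the data were seen, called no member. For Ltbp2 that difference was 1.14 (adjusted p 1.00), with 1 to 19 Ltbp2 UMIs per endothelial-like sum.

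**Figure D5:**
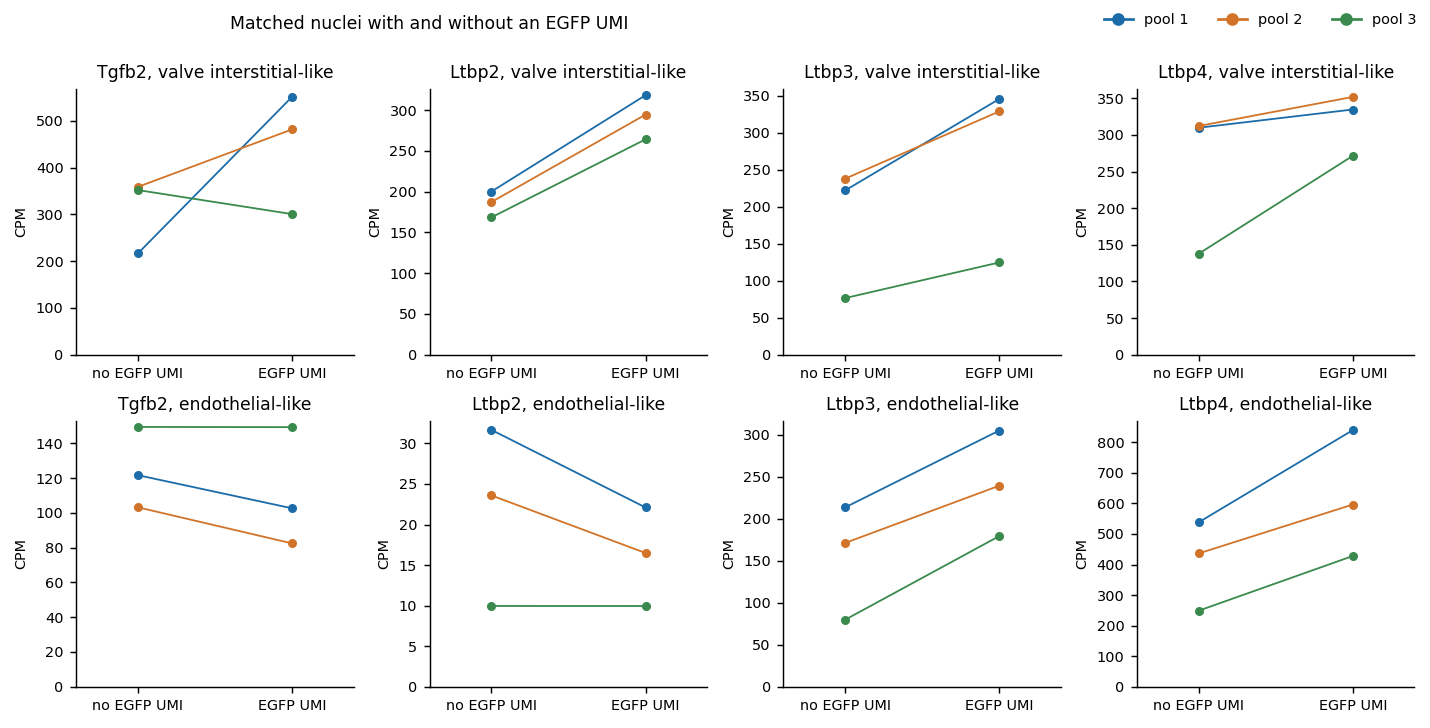
Level of 4 members (y axis, CPM, from 0) in matched nuclei without and with an EGFP UMI (x axis), joined within each pool, for valve interstitial-like (top) and endothelial-like pairs (bottom). Ltbp2 and Ltbp3 values are higher with EGFP in every pool of the valve interstitial-like pairs, but no member passed the adjusted test.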

How the data were processed

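Single-nucleus gene expression was read from 3 pools of 1 group. Per the file headers, Cell Ranger 7.1.0 wrote the deposited matrices, whose values are raw counts of UMIs; the submitters' processing notes name Cell Ranger 7.0.1 and 7.1.0 and GRCm39. The settings of the counting are not given in the sources used here. The tables hold 10580, 5949 and 4611 nuclei and 49918251, 25341316 and 21254247 UMIs, with a smallest total of 500 UMIs per nucleus, so empty droplets were not used here.

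The 10 genes, the lists and the markers were chosen with earlier results of these data known. Nuclei had at least 1000 UMIs and at most 5% of UMIs from 13 mitochondrial genes. Scrublet (scanpy 1.11.5) marked 0 nuclei by its own threshold in each pool, so the highest scores were removed at 0.8% per 1000 deposited nuclei (598, 155 and 138 nuclei). For clustering, totals were set to 10000 and logged; 2000 variable genes, 30 components, 15 neighbours and leidenalg 0.10.2 at resolution 1 gave the clusters. Pathway genes, Scx, EGFP and some cell cycle and sex genes (73 in all) and mitochondrial genes were left out, and no integration was applied. A cluster took a class name from at least 3 markers detected in 10% of its nuclei and 2-fold higher than elsewhere (pseudocount 5 CPM), unless at least 2 markers of another class, and more than of its own, were among its 10 leading genes. This limit was changed from 1 gene after the clusters had been seen, and 2 clusters with a leading neuronal gene are named because of the change; the alternative leaves them out. One cluster of 293 nuclei stayed unnamed. The names are rebuilt from markers and are not the submitters' annotation.

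Counts were summed per pool and class and tested with edgeR 4.0.16 (R 4.3.3): TMM, filterByExpr, quasi-likelihood test, Benjamini-Hochberg over 14351 genes, threshold 0.05. Pool entered as a block, since its classes share animals and library; of 108 pairs of classes in the same pool, 94 had deviations from the class means that correlated above 0.1 (median r 0.417 over 2485 genes, against -0.184 in different pools). The labels call the pools replicates, of which there were 3. In the class tests, p-values measure the spread left after class and pool were fitted, with 1 estimate per gene shared by all classes. They do not measure the spread between the pools of the compared classes alone. In the matched comparison, sums of matched nuclei were tested in the same way. Shares were taken after thinning to 1000 UMIs; a limit for a count of 0 is 3 counts of the total and covers counting error only. Likeness is Pearson's r of log2(CPM + 1). The test was also run on simulated counts, whose outcome is not given here and is not used as support. Alternatives were DESeq2 1.42.0, RLE scaling, no filter, no block, each pool left out, doublets kept, at least 2000 UMIs, at most 2% mitochondrial UMIs, Leiden resolutions of 0.5 and 2 and the lymphatic class left out. The erythroid-like class, the 2 clusters with a leading neuronal gene and the cluster led by Mb and Fabp3 were left out in alternatives added after the data were seen. The rule named all members and allowed naming, in a contrast, those past the threshold, of each list up to 3 highest and 3 lowest past it, and for likeness the 3 highest r; Nrros and members named as not passing were chosen after their values were seen. Some pathway genes past the threshold, and levels by fibroblast-like cluster are not reported here.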

Additional observations from a re-analysis of the deposited data

How the results depend on the processing

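Of the log2 fold changes past the threshold, 2 changed direction: at Leiden resolution 0.5 Ltbp2 in valve interstitial-like nuclei was at -0.25 against smooth muscle-like nuclei (adjusted p 0.458) and at -0.32 against fibroblast-like nuclei (adjusted p 0.451); the cause was not tested. Among values not past it, leaving out the erythroid-like class turned 5 against the other classes: Tgfb1 from 0.33 to -0.67 in smooth muscle-like, 0.32 to -0.66 in fibroblast-like, 0.83 to -0.19 in pericyte-like and 0.82 to -0.15 in valve interstitial-like nuclei, and Tgfbr1 from 0.04 to -0.15 in endothelial-like nuclei. The number of members passing changed by more than 1.5 times as follows, and the cause was not tested. For the pericyte-like class (2 members) it was 1 with no filter, 0 with doublets kept, 4 with at least 2000 UMIs, 1 at resolution 0.5, 1 without the 2 clusters with a leading neuronal gene, 0 without the lymphatic class and 4 without the erythroid-like class. For the erythroid-like class (1) it was 0 with RLE and 0 with DESeq2. For the macrophage-like class (7) it was 3 at resolution 0.5, where that class held 440 nuclei in place of 261. For valve interstitial-like against smooth muscle-like nuclei (4) it was 1 with no replicate block and 7 with at least 2000 UMIs, and against fibroblast-like nuclei (5) it was 3 with no replicate block and 3 at resolution 0.5. With no block every other count stayed within 1.5 times of its main value. Between the 2 valve interstitial-like clusters, 3 members did not overlap at the clustering used. At resolution 2 the class had more than 2 clusters, and the count given there was 5 (2208 of 8473 genes). With doublets kept, a setting chosen after the data were seen, it was 7 (2232 of 9893 genes). The 2 clusters then had 985 and 497 nuclei, against 614 and 930 at the clustering used. These counts are for different divisions of the class. At resolution 0.5 the class had 1 cluster and no value.

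With a pool left out, the number passing was 5 to 7 in cardiomyocyte-like, 6 to 8 in endothelial-like, 0 to 1 in erythroid-like, 5 to 7 in fibroblast-like, 4 to 7 in lymphatic, 2 to 6 in macrophage-like, 5 to 6 in mesothelial-like, 0 to 1 in pericyte-like, 6 to 7 in smooth muscle-like and 5 to 7 in valve interstitial-like nuclei against the other classes. It was 8 to 9, 1 to 3 and 3 to 5 in valve interstitial-like against endothelial-like, smooth muscle-like and fibroblast-like nuclei, and 0 to 0 in both EGFP comparisons. The limit of 2% mitochondrial UMIs left 7 classes and that of 2000 UMIs left 9. Small classes limit precision: the erythroid-like class rests on 249034 UMIs.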
